A study of Mus musculus with 3 samples.

Results

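The 9 transcription factors described here, Foxn4, Ptf1a, Prdm13, Tfap2a, Tfap2b, Tfap2c, Barhl2, Pax6 and Meis2, act in the genesis or identity of amacrine cells, the inhibitory interneurons of the inner retina. They were chosen by name and were 9 of 18823 genes in the explant table, 9 of 17851 at P0 and 8 of 17849 at P14, where Ptf1a had no row. The data are mouse single-cell RNA counts from 3 MULTI-seq libraries, in which lipid-anchored barcodes mark the sample that each cell came from before the cells are pooled. In the first, wild-type CD1 retinas taken at E14 were cultured for 6 days as explants with an agonist of the somatostatin receptor Sstr2 at 0, 5, 50 or 500 nM, with 2 explants at each dose. In the other two, retinas of an Sstr2 allelic series were taken at P0 or at P14, each with 1 Sstr2 +/+, 2 +/- and 2 -/- retinas. That line carries the germline em1(IMPC) deletion on a C57BL/6 background that was outbred to CD1. The number of retinas pooled in an explant sample is not given in the sources used here.

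As background, Foxn4 is a forkhead factor of retinal progenitors that confers competence for amacrine and horizontal fates and acts upstream of Ptf1a. Ptf1a is a basic helix-loop-helix factor that binds DNA together with Rbpj, is expressed briefly after the last division, and is required for amacrine and horizontal cells. Prdm13 is a zinc-finger factor downstream of Ptf1a with a role in particular amacrine subtypes, and Tfap2a, Tfap2b and Tfap2c encode AP-2 proteins of postmitotic amacrine and horizontal cells. Barhl2 is a homeodomain factor needed for the specification of amacrine and ganglion cells. Pax6 is the paired-homeodomain factor of progenitors that persists in amacrine and ganglion cells, and Meis2 is a homeodomain cofactor that persists in GABAergic amacrine cells.

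The genes lie on 5 chromosomes of GRCm38. Ptf1a (chromosome 2, 19445663 to 19447501, plus strand), Pax6 (105668900 to 105697364, plus), Meis2 (115863064 to 116065839, minus) and Tfap2c (172549593 to 172558622, plus) share chromosome 2. Barhl2 (106452523 to 106458166) and Foxn4 (114254164 to 114273807) are both on the minus strand of chromosome 5. Prdm13 is on chromosome 4 (21677480 to 21685963, minus), Tfap2a on chromosome 13 (40715302 to 40738376, minus) and Tfap2b on chromosome 1 (19208914 to 19238576, plus).

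Promoters were read from RefSeq for GRCm38.p6, from 250 bases before to 50 bases after the annotated start, and 10 entries covered 8 of the 9 genes, all but Tfap2c. Those of Ptf1a and Prdm13 are shown because both genes were detected in the same cells, and those of Tfap2b and Meis2 because both were lower in those cells. Capitals mark matches on either strand to CANNTG, the E box bound by basic helix-loop-helix factors, and to TGGGAA, the core bound by Rbpj, which reads TTCCCA on the other strand.
Ptf1a, chr2:19445413-19445712, plus strand: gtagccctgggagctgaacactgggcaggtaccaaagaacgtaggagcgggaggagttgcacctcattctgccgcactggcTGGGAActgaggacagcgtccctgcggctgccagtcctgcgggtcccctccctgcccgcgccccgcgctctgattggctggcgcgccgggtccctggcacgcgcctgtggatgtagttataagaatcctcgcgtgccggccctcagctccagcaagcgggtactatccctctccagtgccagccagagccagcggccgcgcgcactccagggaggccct
Prdm13, chr4:21685914-21686213, minus strand: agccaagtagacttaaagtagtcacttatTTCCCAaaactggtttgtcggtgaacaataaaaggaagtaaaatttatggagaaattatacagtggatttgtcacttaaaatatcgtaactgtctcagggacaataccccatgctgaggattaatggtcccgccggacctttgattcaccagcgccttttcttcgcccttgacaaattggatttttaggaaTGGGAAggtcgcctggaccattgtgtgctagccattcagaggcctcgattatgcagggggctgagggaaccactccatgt
Tfap2b, chr1:19211804-19212103, plus strand: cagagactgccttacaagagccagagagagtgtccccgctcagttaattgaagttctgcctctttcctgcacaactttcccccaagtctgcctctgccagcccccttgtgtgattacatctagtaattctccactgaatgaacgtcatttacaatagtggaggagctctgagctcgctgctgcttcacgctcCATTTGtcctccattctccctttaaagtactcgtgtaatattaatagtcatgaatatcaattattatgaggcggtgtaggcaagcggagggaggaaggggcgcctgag
Meis2, chr2:116064570-116064869, minus strand: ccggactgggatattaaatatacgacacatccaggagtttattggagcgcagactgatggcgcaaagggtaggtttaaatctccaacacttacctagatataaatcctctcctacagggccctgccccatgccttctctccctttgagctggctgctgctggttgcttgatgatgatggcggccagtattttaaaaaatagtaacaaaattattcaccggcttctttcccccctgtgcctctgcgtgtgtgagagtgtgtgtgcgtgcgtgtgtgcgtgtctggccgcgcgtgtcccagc
The Ptf1a window held 1 Rbpj core, 169 bases before the start, and no E box. The Prdm13 window held 2 Rbpj cores, 221 and 30 bases before the start, and no E box. The starts of the Tfap2b and Meis2 windows lie inside the longer genes of the other annotation. The Tfap2b window held 1 E box (CATTTG) 58 bases before the start, and the Meis2 window held neither motif. Of 32851 mouse promoters of the same length, 72.3% held CANNTG and 25.6% held TGGGAA, so neither motif is rare. The AP-2 letters GCCNNNGGC, held by 16.6% of promoters, were found in the Ptf1a window and in 1 of the Pax6 windows.

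Total counts per sample ran from 1281682 to 4237324 UMIs in explants, 8822880 to 10793649 at P0 and 1266730 to 5886669 at P14, in 5607, 5706 and 3298 cells. At most 9 cell barcodes were shared by any 2 libraries. The authors' cell types were kept. Amacrine cells numbered 66 to 355 per explant and 160 to 232 per P0 retina, but 15, 4, 4, 22 and 23 in the P14 retinas, so the P14 values rest on few cells and the heterozygous retinas with 4 cells each enter no mean. The summed level of 8 amacrine markers was 614 to 758 CPM, UMIs of a gene scaled to a common total over the summed cells of a sample, in explant amacrine cells and 599 to 848 at P0. It was at most 133 in progenitors and photoreceptors but 786 to 2411 in explant and 2760 to 3372 in P0 retinal ganglion cells (RGCs), which share several of those markers. As a whole the list was thus higher in P0 RGCs than in P0 amacrine cells. Slc32a1 and Gad1, the inhibitory transporter and GABA synthesis genes in that list, were at 0 in P0 RGCs. Slc32a1 and Gad1 were picked after their values were seen. The P14 amacrine cells also carried 868 to 2126 CPM of 4 horizontal cell markers and 405 to 1372 CPM of 4 rod markers. Neither list was confined to them among the P14 types other than rods. Bipolar cells held 827 to 1043 CPM of the horizontal list, while Muller glia held at most 170. The rod list stood at 1406 to 2556 CPM in bipolar cells, 704 to 2058 in Muller glia and 1743 to 8313 in cones. Sstr2 itself did not fall in retinas labelled knockout: P0 neurogenic progenitors held 112 CPM in the wild type, 189 and 248 in the heterozygotes and 294 and 375 in the knockouts. The paper reports this rise in the same data and proposes that Sstr2 signaling may hold down transcription of its own gene. The counts are 3' tags and the deleted part is not given in the sources used here, so they do not check the genotype, and genotype below means the label.

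**Figure D1:**
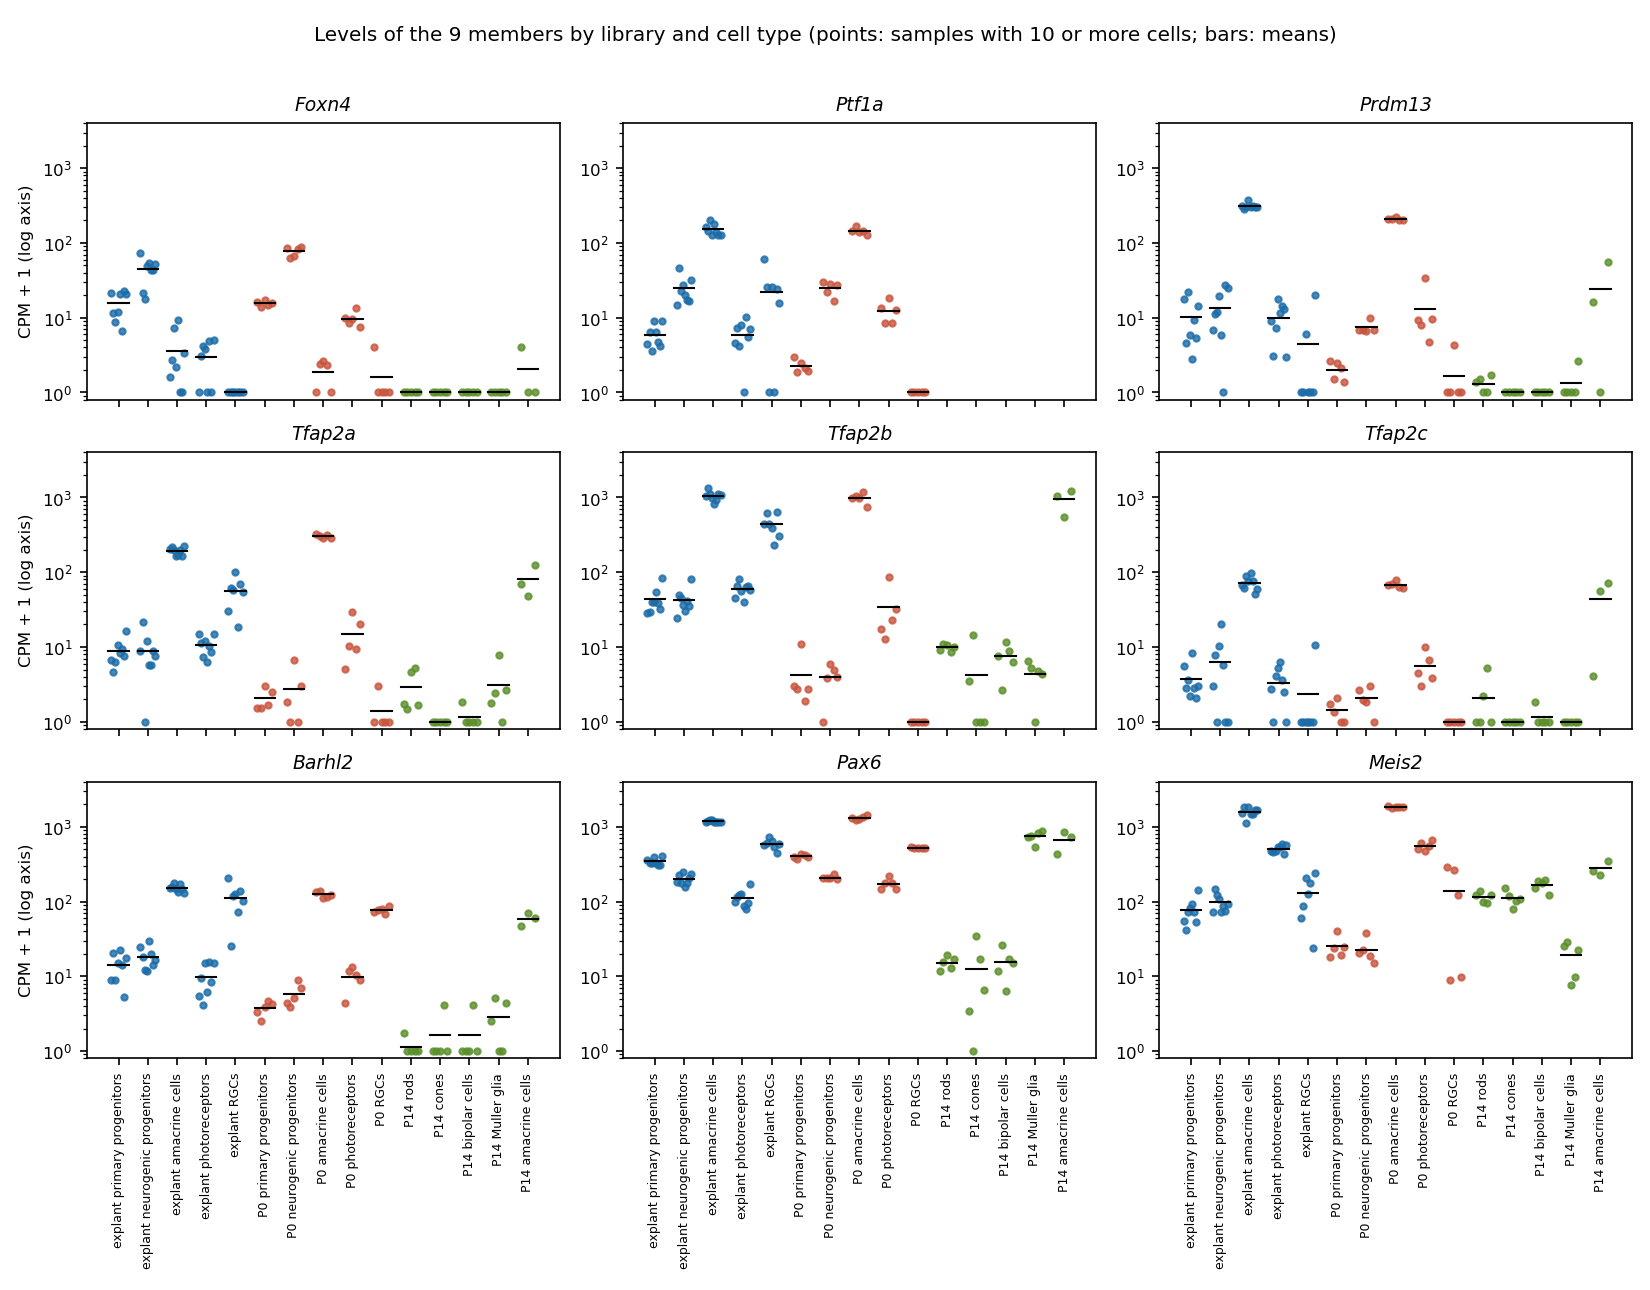
Levels of the 9 genes in each cell type. The y axis is CPM plus 1 on a log axis, the x axis gives the library and cell type, each point is 1 sample with at least 10 cells of that type and each bar is the mean. Foxn4 peaked in neurogenic progenitors (means of 43.3 CPM in explants and 76.1 at P0), the other 8 were highest in amacrine cells of both early libraries, and Pax6 stood as high in P14 Muller glia as in P14 amacrine cells.

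The order of cell types separated Foxn4 from the other 8 genes. Foxn4 was highest in neurogenic progenitors and all but missing from amacrine cells. The paper proposes that neurogenic progenitors with Sstr2 run from dividing cells to postmitotic precursors. By contrast, Ptf1a, Prdm13, the 3 AP-2 genes, Barhl2, Pax6 and Meis2 were highest in amacrine cells of both explants and P0 retinas. Because the authors named the cell types from clusters of these same cells, levels by type are a description with no test. Levels are compared between cell types for 1 gene at a time and not between genes.

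In neurogenic progenitors Foxn4 stood at 73.3 and 20.7 CPM in the 0 nM explants, 16.5 and 48.3 at 5 nM, 52.9 and 42.2 at 50 nM and 41.8 and 50.9 at 500 nM. The P0 values were 83.4 CPM in the wild type, 62.9 and 65.0 in the heterozygotes and 80.9 and 88.3 in the knockouts. The explants thus spread more widely (43.3 ± 18.2 CPM, SD, n = 8) than the P0 retinas (76.1 ± 11.4, n = 5). Primary progenitors, the dividing multipotent cells, held 14.6 ± 6.48 CPM in explants and 14.7 ± 1.19 at P0. Their range overlapped that of neurogenic progenitors in explants and did not at P0. In amacrine cells 11 Foxn4 UMIs were counted over all explants and 7 over all P0 retinas, and at P14 Foxn4 had a single UMI, in an amacrine cell of the wild type.

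Ptf1a was highest in amacrine cells, with neurogenic progenitors next. The amacrine values were 163 and 143 CPM at 0 nM, 202 and 127 at 5 nM, 178 and 139 at 50 nM and 127 and 127 at 500 nM. At P0 they were 143 CPM in the wild type, 166 and 137 in the heterozygotes and 145 and 128 in the knockouts. Neurogenic progenitors held 23.7 ± 10.3 CPM in explants (n = 8) and 24.0 ± 5.49 at P0 (n = 5), which was 15.7% and 16.7% of the amacrine level. The ranges of these neighbours in the order did not overlap in either library. Those of neurogenic progenitors overlapped with the next type, photoreceptors at P0 and RGCs in explants. No Ptf1a UMI was found in 85 P0 RGCs.

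Prdm13 was an amacrine gene in both early libraries, at 311 ± 25.4 CPM in explants and 208 ± 8.17 at P0. The P0 values were 207 CPM in the wild type, 210.5 and 219.9 in the heterozygotes and 199.8 and 201 in the knockouts, a narrow range. Every explant lay higher, from 280.3 to 369 CPM. Neurogenic progenitors held 0 to 26.1 CPM in explants and 5.69 to 8.88 at P0. Per the paper, P0 was chosen to match the age of the cultured explants. The explants and P0 retinas still differ in culture, strain and library at once, and these cannot be told apart. The share of all genes whose explant and P0 values did not overlap was not counted. Such a separation, here or below, is therefore no result about the members.

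The AP-2 genes were amacrine genes in all 3 libraries. Tfap2a was at 192 ± 24.3 CPM in explant and 306 ± 17.3 in P0 amacrine cells, with all 5 P0 retinas (288 to 328) above all 8 explants (162 to 225). As for Prdm13, the share of all genes that separated in this way was not counted. Tfap2b was at 1051 ± 157 and 996 ± 156 CPM. Its P0 range ran from 751 in knockout replicate 2 to 1180.0 in knockout replicate 1, so the 2 knockouts spanned all the other retinas. Tfap2c was at 71.6 ± 15.7 CPM in explants and 67.1 ± 6.45 at P0. Outside amacrine cells, Tfap2b reached 229 to 647 CPM in explant RGCs and was at 0 in all 5 P0 RGC samples.

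The explant RGC cluster was mixed in this respect. Of its 200 cells, 74 had a Tfap2b UMI, and those cells together held 1451 CPM of Isl1 against 315 in the rest. They held less of the ganglion cell genes Sncg (106 against 461 CPM), Rbpms (109 against 551) and Nefl (102 against 433). Isl1 marks both ganglion cells and starburst amacrine cells, and the identity of these cells was not tested further.

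Barhl2 was also found in the cells named RGCs. In explants these are the mixed cluster above, and the paper states that its explants had no viable ganglion cells. Amacrine cells held 151 ± 16.8 CPM in explants and 124 ± 12.1 at P0, against 112 ± 56.9 and 76.0 ± 7.30 in RGCs, or 74.0% and 61.4% of the amacrine level. The 2 types overlapped in explants and did not at P0, where RGCs ranged from 67.5 to 87.1 CPM and amacrine cells from 112 to 138. Neurogenic progenitors held 10.9 to 28.9 CPM in explants and 2.90 to 7.90 at P0.

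Pax6 was present in every cell type of the early retina, in the same order in explants and at P0. Amacrine cells held 1182 ± 29.3 CPM in explants and 1316 ± 73.7 at P0, followed by RGCs, then primary progenitors at 29.2% and 30.6% of the amacrine level, then neurogenic progenitors and photoreceptors, whose ranges overlapped. Its 8 explant amacrine values lay between 1146 and 1219 CPM. A Pax6 UMI was found in 85 of 85 P0 RGCs.

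Meis2 had a second site, in photoreceptors. Amacrine cells held 1578 ± 226 CPM in explants and 1859 ± 44.9 at P0, and photoreceptors 510.0 ± 55.9 and 561 ± 74.9, or 32.3% and 30.2% of the amacrine level. No photoreceptor sample overlapped an amacrine sample. In progenitors Meis2 was higher in explants (71.3 to 145 CPM in neurogenic progenitors) than at P0 (13.9 to 36.6), with no overlap. Here too the share of all genes that separated was not counted. P0 RGCs were uneven, at 291 CPM in the wild type, 7.97 and 259.9 in the heterozygotes and 119.6 and 8.93 in the knockouts. Only 20 of the 85 cells had a Meis2 UMI and a single cell carried 46 of them, so these values rest on a few cells.

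In the P14 library the members did not all stand at the levels of the early libraries. Among the 3 retinas with at least 10 amacrine cells (wild type, knockout 1 and knockout 2), Tfap2b stood at 1055, 543 and 1230.3 CPM and Pax6 at 427, 845 and 734 CPM. Meis2 was at 257, 225 and 350.3 CPM and Tfap2a at 68.1, 46.5 and 125 CPM. Barhl2 was at 46.4, 69.8 and 58.4 CPM in the same order. The lowest P14 Tfap2b value overlapped none of the early ones, whereas the other 2 lay within them. Every P14 value of Meis2, Pax6, Tfap2a and Barhl2 lay under every P0 and explant value. The share of all genes that lay lower at P14 was not counted, so this is no result about the members. Age and library differ together here and cannot be told apart, and the part of rod transcripts in these values was not tested. Prdm13 had 5, 0 and 13 UMIs and Tfap2c 1, 7 and 17.

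Outside amacrine cells at P14, Pax6 was carried by Muller glia, at 720.2, 757, 539.8, 828 and 876 CPM in the wild type, heterozygotes and knockouts. That was 111% of the amacrine mean, and the 2 types overlapped. Meis2 was spread over bipolar cells (121 to 195 CPM), rods (95.2 to 135) and cones (78.7 to 149), at 59.9%, 41.0% and 39.9% of the amacrine mean. Tfap2b stayed at or under 13.4 CPM in every other P14 type.

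Shares of cells were counted at equal depth. After each cell was thinned to 2000 UMIs, Foxn4 was detected in 7.79% of explant and 11.1% of P0 neurogenic progenitors, against 0.368% and 0.0987% of amacrine cells. Ptf1a was detected in 4.12% and 3.29% of neurogenic progenitors and in 16.1% and 15.0% of amacrine cells (1358 explant and 1013 P0 cells, with 14 explant cells left out as too shallow). The share in other cell types gives a background, which depends on the type chosen. For Ptf1a it was 0.853% of explant and 0.143% of P0 primary progenitors. Their median depths before thinning were 4548 and 8759 UMIs, against 4742.5 and 7332 in amacrine cells. It was 0.874% and 1.06% of photoreceptors and 2.56% and 0% of RGCs, in explants and at P0. Tfap2b was detected in 59.4% and 57.4% of amacrine cells. Its share in explant neurogenic progenitors (7.79%) was close to that in explant primary progenitors (7.25%) and photoreceptors (9.81%). The share therefore does not set explant neurogenic progenitors apart, and its source was not tested. At P0 it was 0.299% in neurogenic progenitors.

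Most amacrine cells had a UMI of at least 1 AP-2 gene at this depth, namely 1005 of 1358 explant cells (74.0%), 742 of 1013 P0 cells (73.2%) and 39 of 63 P14 cells (61.9%). All 3 AP-2 genes were seen together in only 22 explant and 27 P0 cells. Pax6 was detected in 86.7% and 89.5% of amacrine cells and Meis2 in 70.3% and 66.9%. Prdm13 was detected in 26.4% and 21.6%, Tfap2a in 28.8% and 42.8%, Barhl2 in 23.0% and 20.2% and Tfap2c in 11.4% of both.

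**Figure D2:**
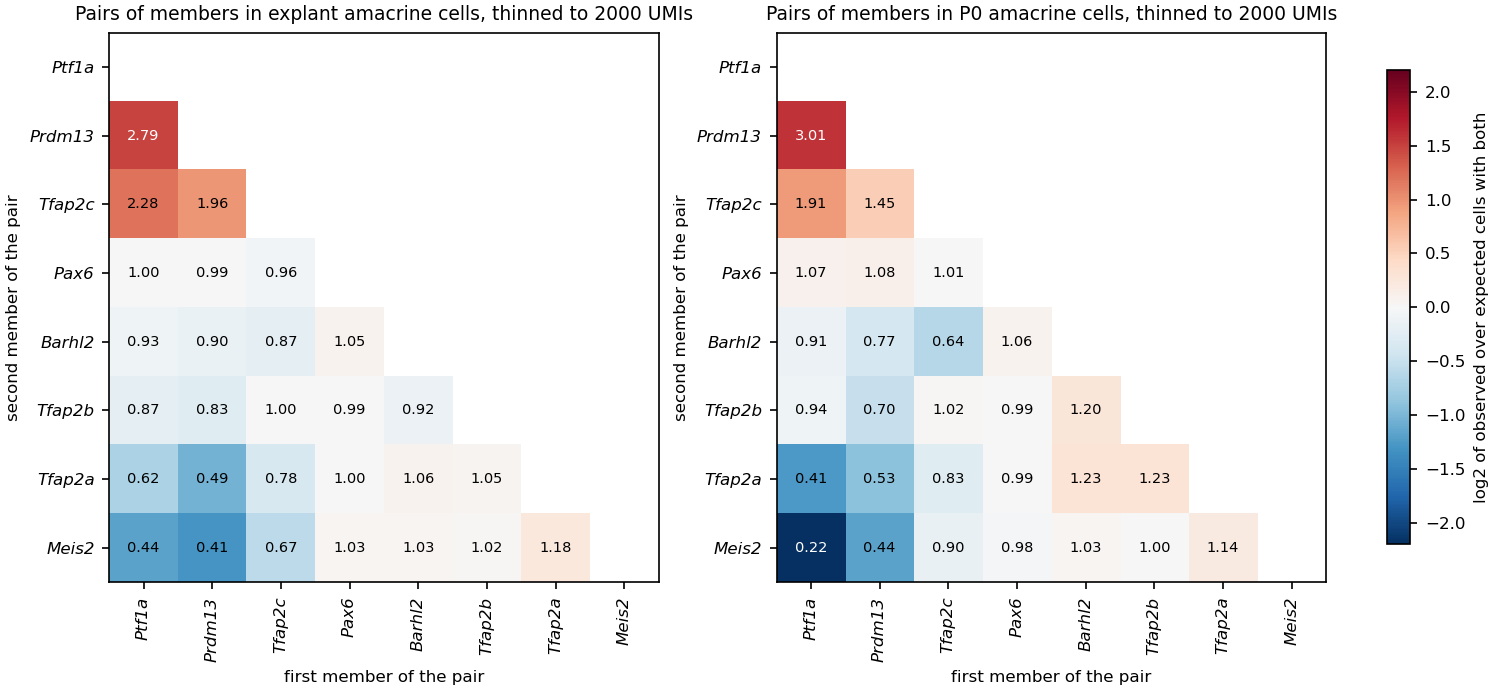
Detection of pairs of members in the same amacrine cell, thinned to 2000 UMIs, in explants (left) and at P0 (right). Each square gives the cells with both genes over the number that independent detection would give, and its color is the log2 of that ratio. Ptf1a with Prdm13 was seen 2.79 and 3.01 times as often and Ptf1a with Meis2 0.442 and 0.216 times as often.

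The members did not spread evenly over the amacrine cells. Ptf1a and Prdm13 were found together in 161 explant cells where independent detection would give 57.7, and in 99 P0 cells against 32.9. Tfap2c went with both, at ratios to Ptf1a of 2.28 in explants and 1.91 at P0 and to Prdm13 of 1.96 and 1.45. Meis2 and Tfap2a were seen less often with Ptf1a, at ratios of 0.442 and 0.216 for Meis2 and 0.619 and 0.415 for Tfap2a. They were also seen less often with Prdm13 (0.409 and 0.443, 0.485 and 0.533), and slightly more often with each other (1.18 and 1.14). The ratios of Pax6 ran from 0.960 to 1.08 in all its pairs other than that with Foxn4, but a gene found in so many of the cells cannot give a ratio far above 1. These ratios pool the cells of all samples of a library and are descriptions.

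To give these differences sample by sample, the amacrine cells of each explant or retina were parted into those with and without a Ptf1a UMI, and their counts were summed on each side. This comparison was added after the data had been seen and uses the same cells and genes as the ratios, so its p-values are no independent support. The cells with Ptf1a numbered 22 to 89 per explant and 41 to 64 per P0 retina, and cells without a UMI can still hold the transcript. Of the 7 other members tested in each library, Prdm13 and Tfap2c rose and Meis2, Tfap2a and Tfap2b fell beside Ptf1a in both, while Barhl2 was not called by edgeR in either. Of all genes tested, 38.5% were called in explants and 43.0% at P0 (edgeR quasi-likelihood test with the sample as a term, adjusted p under 0.05), so a call as such was common and the sizes carry the result.

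Prdm13 was higher in all 13 samples. It stood at 684 to 1222 CPM in the explant cells with Ptf1a and at 92.8 to 169.8 CPM in those without, a log2 difference of 3.01 ± 0.08 (SE, edgeR adjusted p = 2.66e-35). At P0 the cells with Ptf1a held 572 CPM in the wild type, 506 and 622 in the heterozygotes and 614 and 455 in the knockouts, against 55.9 to 89.9 CPM without (3.14 ± 0.11, edgeR adjusted p = 1.75e-17). No sample overlapped across the split. By cells, 83.9% of explant and 91.0% of P0 cells with Ptf1a had a Prdm13 UMI, against 17.3% and 17.8% without.

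Meis2 was the reverse. Explant cells with Ptf1a held 231 to 539.7 CPM and those without 1539.7 to 2283 (log2 difference -2.29 ± 0.08, edgeR adjusted p = 2.42e-31). At P0 the cells with Ptf1a held 438, 256, 187, 339 and 369 CPM, in the order wild type, heterozygotes, knockouts, against 2340.0 to 2574 CPM in the rest (-2.91 ± 0.09, edgeR adjusted p = 2.80e-18). The share of cells with a Meis2 UMI was 49.6% against 89.0% in explants and 40.4% against 88.1% at P0. The difference between explants and P0 in this value was -0.63 and did not pass (exact permutation over samples, p = 0.0559).

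The AP-2 genes went in both directions. Tfap2c was higher with Ptf1a, at 105 to 211 against 32.3 to 57.9 CPM in explants and 91.6 to 148 against 33.2 to 61.9 at P0 (log2 differences of 1.77 ± 0.14 and 1.47 ± 0.16). Tfap2a was lower, at 38.0 to 159 against 199 to 248 CPM in explants and 98.2 to 201 against 352 to 407 at P0 (-1.20 ± 0.13 and -1.43 ± 0.11). Tfap2b was lower in level, at 360.0 to 794 against 1011 to 1519.9 CPM in explants (-1.10 ± 0.07) and 422 to 527 against 875 to 1402 at P0 (-1.26 ± 0.07). It was nevertheless found in as large a share of cells, 77.4% against 74.5% in explants and 80.2% against 69.8% at P0. The sides of the split did not overlap for any of the 3 in either library.

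Pax6 was not called across the split in explants, at 1012 to 1395 against 1119.8 to 1268 CPM (-0.03 ± 0.05), and was lower in the cells with Ptf1a in 7 of 8 explants. At P0 it was slightly higher in the cells with Ptf1a in all 5 retinas, at 1408, 1382, 1322, 1480.1 and 1548 against 1257, 1143, 1276, 1303 and 1367 CPM (0.25 ± 0.04, edgeR adjusted p = 1.63e-05). The direct test of that difference between libraries gave p = 0.0186 unadjusted (exact permutation) and did not pass once adjusted for the 10 such comparisons made. Barhl2 differed by -0.09 ± 0.12 and -0.08 ± 0.12. By the exact sign-flip permutation over 8 explants, Prdm13, Meis2 and the 3 AP-2 genes each gave p = 0.00781, the smallest possible. Barhl2 was lower in 6 of 8 explants, with a mean difference in log2(CPM + 1) of -0.28. The exact sign-flip permutation gave it p = 0.0313, or 0.0417 adjusted over 8 members, unlike the edgeR fit, which did not call it. With 5 retinas the smallest p is 0.0625. Median depth was 4640.5 to 5227.5 UMIs in the cells with Ptf1a and 4487 to 4920 in those without in explants, and 6972 to 7221 against 7073 to 7589 at P0.

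**Figure D3:**
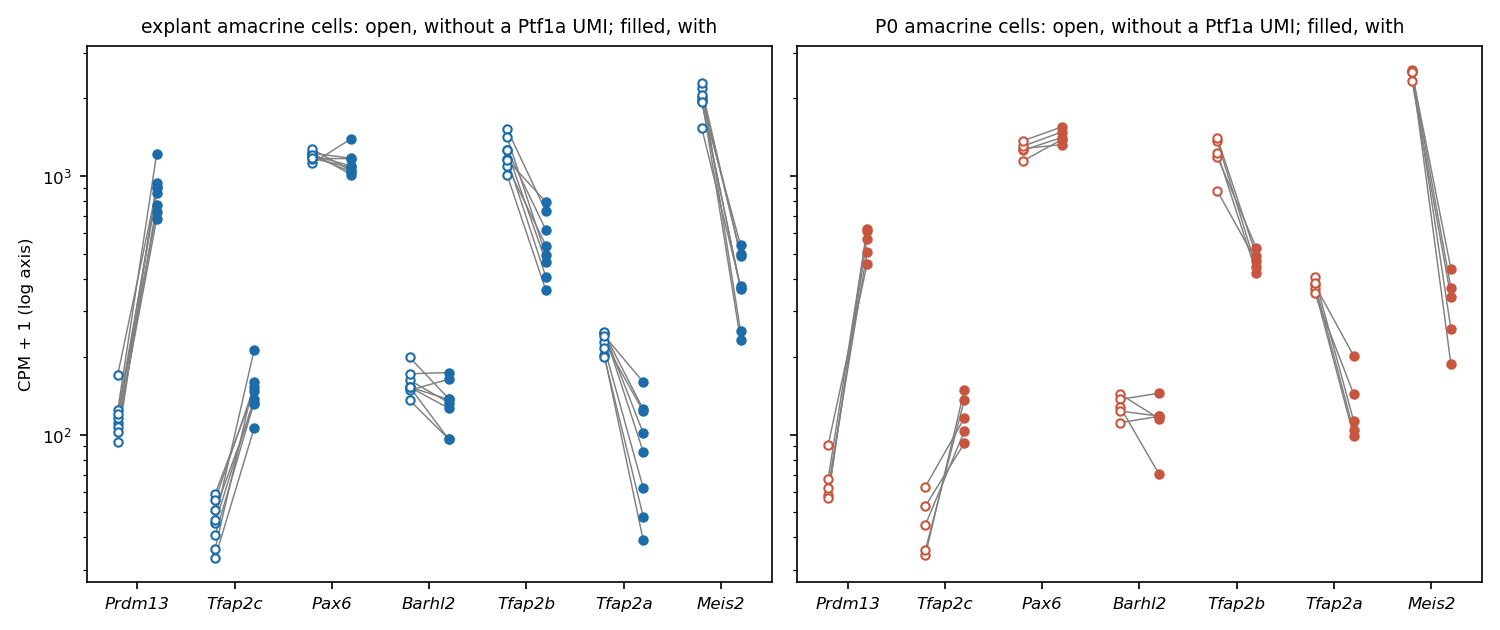
Members in amacrine cells with a Ptf1a UMI (filled) and without (open), in 8 explants (left) and 5 P0 retinas (right). The y axis is CPM plus 1 on a log axis and each line joins both sides of 1 sample. Prdm13 and Tfap2c rise and Tfap2b, Tfap2a and Meis2 fall in every line, while lines of Pax6 in explants (7 of 8 lower) and of Barhl2 in both libraries go either way.

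Other factors of the retina, a list of 28, parted along the same split. Of those that passed the filter on low counts, 11 were called higher and 4 lower of 15 in explants, and 13 higher and 6 lower of 20 at P0. Over all genes tested, 38.5% were called in explants and 43.0% at P0. Among the higher ones was the proneural gene Neurod4 (log2 differences of 3.47 in explants and 5.20 at P0). Rbpj, whose product is the partner of Ptf1a, was higher by 0.82 and 1.10. Bhlhe22, a factor of amacrine subtypes, was lower (-2.40 and -3.22). Of the transmitter genes, Gad1 was lower (-3.61 and -4.08), as was Slc32a1 (-0.87 and -1.38), whereas Gad2 was slightly higher (0.31 and 0.35).

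The neurogenic progenitors were also parted by their own counts of the earliest factor, Foxn4. When these cells were parted by a Foxn4 UMI, 20.0% of all genes tested were called in explants and 21.3% at P0. Among the genes called, 3 are named after their values were seen. Top2a and Hist1h1b, which are transcribed in dividing cells, were higher with Foxn4 (log2 differences of 1.88 and 2.32, and of 2.07 and 2.34), and Neurod4 was lower (-1.48 and -1.17). Ptf1a had 4 UMIs in cells with Foxn4 against 64 in the rest in explants (7.86 against 26.7 CPM, lower in 6 of 7 explants, exact sign-flip permutation p = 0.0313, unadjusted, 1 of 8 members compared). At P0 it had 20 against 113 UMIs (8.79 against 33.9 CPM, exact p = 0.125 where 0.0625 is the smallest). The cells with Foxn4 were deeper at P0, with medians of 8217.5 to 9799 UMIs against 5777 to 6754, and the part of depth in the gene calls was not tested beyond thinning. Of the 2 members with enough counts for the fit, Meis2 was called in explants (-0.81 ± 0.29, edgeR adjusted p = 0.0417) and neither at P0, and DESeq2 did not call it.

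Parting the neurogenic progenitors by Ptf1a was the converse, and for Foxn4 and Ptf1a it reads the same relation in the same cells. At P0, 2.34% of all genes were called. Prdm13 held 42.7, 42.8, 23.8, 53.2 and 42.5 CPM in the cells with Ptf1a against 0, 1.09, 3.62, 3.33 and 1.12 (log2 difference 4.28 ± 0.61). Of its 35 UMIs in P0 neurogenic progenitors, 26 lay in the cells with Ptf1a. At these levels Prdm13 could pass the filter on low counts only through the cells with Ptf1a. Its call is therefore no support, and the values are a description. Foxn4 was lower, at 54.9, 34.2, 7.95, 44.3 and 17.0 CPM against 88.0, 66.5, 71.5, 85.5 and 97.7 (-1.36 ± 0.30, edgeR adjusted p = 0.00833). Pax6 was higher by 0.63 ± 0.15 (edgeR adjusted p = 0.0184). DESeq2 called neither Foxn4 nor Pax6 and gave no adjusted p for Prdm13, and on thinned cells, where Pax6 alone of the members had enough counts, it was not called. The cells with Ptf1a were deeper in every retina, with medians of 6682 to 10245 UMIs against 6294 to 7591, and the part of depth in these differences was not tested. Among thinned P0 neurogenic progenitors, Foxn4 and Ptf1a were found together in 3 cells where independent detection would give 2.43 (ratio 1.23). For explants it was 1 cell against 2.18 (ratio 0.458). These counts are too few to tell whether Foxn4 and Ptf1a were seen together less often at equal depth. Without heterozygous replicate 2 or knockout replicate 2 the Foxn4 call was lost, and without heterozygous replicate 1 or knockout replicate 2 that of Pax6. In explants only 4 samples had 5 or more cells with Ptf1a, 1.04% of genes were called and no member was.

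The agonist comparison asked whether activating Sstr2 in explants changed these genes in amacrine cells or in the neurogenic progenitors that carry the receptor. No member was called in either cell type, by the fit of 500 against 0 nM or by the trend over the 4 doses. With so few explants at each dose, the lack of a call does not show that a member was unchanged. In amacrine cells, 0 of the 8 members tested were called, beside 0.269% of 8188 genes (22 genes) at 500 against 0 nM and 0.122% for the trend, which uses the same explants. In neurogenic progenitors 0 of 5 members were called, beside 0.0988% of 6072 genes and 0.0659% for the trend. The median log2 fold change of the 8 members in amacrine cells was -0.10 against -0.00 over all genes.

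Both 500 nM explants lay under both 0 nM explants for Ptf1a, Tfap2c, Barhl2 and Pax6 in amacrine cells, and the groups overlapped for the other members tested. None of these members was called, and for Pax6 the nearest values were 1168 and 1172 CPM. The share of all genes that separated in this way was not counted, so the separation is no result about the members. Prdm13 held 309 and 280.3 CPM at 0 nM and 300.5 and 306 at 500 nM (log2 fold change 0.02 ± 0.11). Meis2 held 1552 and 1813 CPM against 1681 and 1675 (0.01 ± 0.10), and Pax6 1172 and 1212 against 1168 and 1153 (-0.03 ± 0.08). Ptf1a was the member nearest to the threshold, with both 500 nM explants at 127 CPM under both 0 nM explants at 163 and 143 (-0.30 ± 0.15, unadjusted p = 0.0585, edgeR adjusted p = 0.927). One 5 nM explant also stood at 127 CPM, and the share of amacrine cells with a Ptf1a UMI was 25.1% and 22.6% at 0 nM against 23.3% and 17.9% at 500 nM.

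None of the 3 AP-2 genes passed the test. Tfap2b went from 1058 and 1345 to 1106 and 1089.7 CPM (-0.10 ± 0.09), Tfap2a from 201 and 218 to 162 and 225 (-0.09 ± 0.13) and Tfap2c from 67.3 and 60.2 to 50.1 and 58.3 (-0.26 ± 0.20). Tfap2c was highest at the middle doses, at 88.4 and 76.5 CPM at 5 nM and 96.5 and 75.2 at 50 nM. Barhl2 went from 151 and 155 to 145 and 127 CPM (-0.16 ± 0.14). Genes called in these amacrine cells at 500 nM included the X-inactivation gene Xist (log2 fold change 1.17), the Y-linked Eif2s3y (-6.06) and the microglial gene C1qa (3.38). The 2 microglial markers summed to 0 to 72.6 CPM over the explants. Their part in the members' values was not tested.

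**Figure D4:**
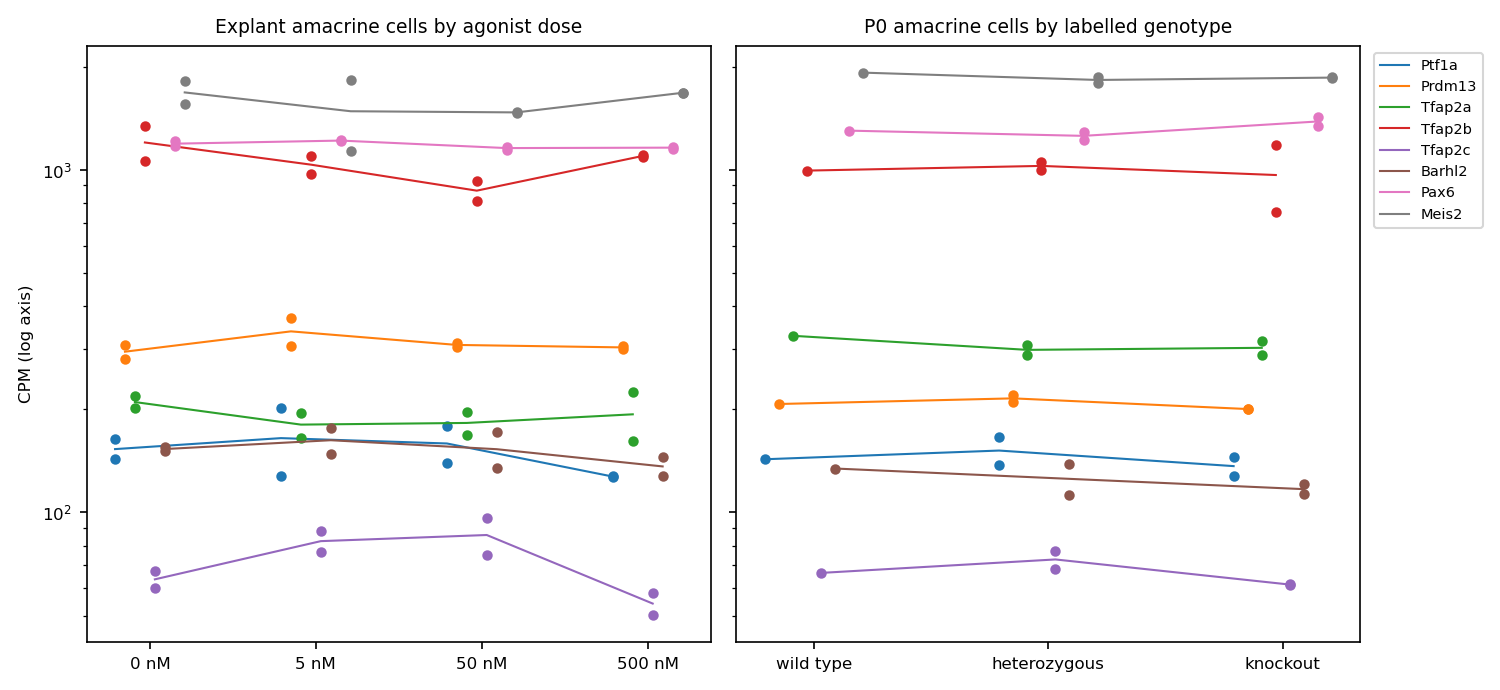
Members in amacrine cells by agonist dose (left, 2 explants a dose) and by labelled genotype at P0 (right, 1 wild type, 2 heterozygous and 2 knockout retinas). The y axis is CPM on a log axis, points are samples and lines join the group means. The 500 nM explants are both at 127 CPM for Ptf1a.

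In neurogenic progenitors Foxn4 changed by -0.20 ± 0.37 at 500 nM, Pax6 by 0.12 ± 0.19 and Meis2 by -0.26 ± 0.27. Tfap2b, at 23.8 and 48.2 CPM at 0 nM and 34.0 and 79.7 at 500 nM, gave 0.81 ± 0.38 (unadjusted p = 0.0418, edgeR adjusted p = 0.923), and its 500 nM values did not both lie above the 0 nM ones. The share of these cells with a UMI of a member, thinned to 2000 UMIs, was also set against the log of dose over the 8 explants. Foxn4 ranged from 4.62% to 10.9% of cells (Pearson's r = 0.08, exact permutation p = 0.838; Spearman's rho = 0.22, p = 0.611) and Ptf1a from 0.901% to 9.23% (r = 0.13, exact permutation p = 0.748). Without 0 nM replicate 2, r for Ptf1a was 0.75 (exact permutation p = 0.0476, or 0.429 adjusted over the 9 members). With cells not thinned, r for Ptf1a over the 8 explants was -0.29 (exact permutation p = 0.511). The closest relation was that of Meis2 (r = 0.63, exact permutation p = 0.102, and rho = 0.54, exact permutation p = 0.190, among 9 relations computed). Without the 2 explants farthest from the median dose r for Meis2 was 0.79 (p = 0.0889 by exact permutation). With cells not thinned it was 0.09 (exact permutation p = 0.865), so the relation depended on thinning.

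Primary progenitors were compared after the data had been seen, since Tfap2b and Meis2 stood out in 1 explant. At 500 nM, explant replicate 2 held 142 CPM of Meis2 against 41.1 to 92.0 in the other 7. The fold changes were 1.03 ± 0.26 for Meis2 (edgeR adjusted p = 0.0728) and 1.08 ± 0.30 for Tfap2b (adjusted p = 0.135), and 0 of 6 members were called beside 0.317% of 8514 genes. Foxn4 changed by 0.27 ± 0.41 and Pax6 by 0.01 ± 0.14. Lens crystallin genes were called in the same comparison (Cryaa, 5.39), and the part of other tissue in these values was not tested. Without 500 nM replicate 2 the fold changes were 0.07 for Meis2 and 0.15 for Tfap2b, and without 500 nM replicate 1, which leaves replicate 2 alone, both were called.

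The genotype comparison asked whether loss of Sstr2 changed the members at P0. In amacrine cells 0 of 8 members were called against the wild type, beside 0.00964% of 10373 genes (1 gene), and 0 of 8 against the heterozygotes, beside 0.0386% (4 genes). In neurogenic progenitors 0 of 4 were called against the wild type, beside 0.0334% of 8984 genes, and 0 of 4 against the heterozygotes, beside 0.0111%. Both comparisons use the same 2 knockout retinas, and the wild type is a single retina whose spread was taken from the other groups.

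**Figure D5:**
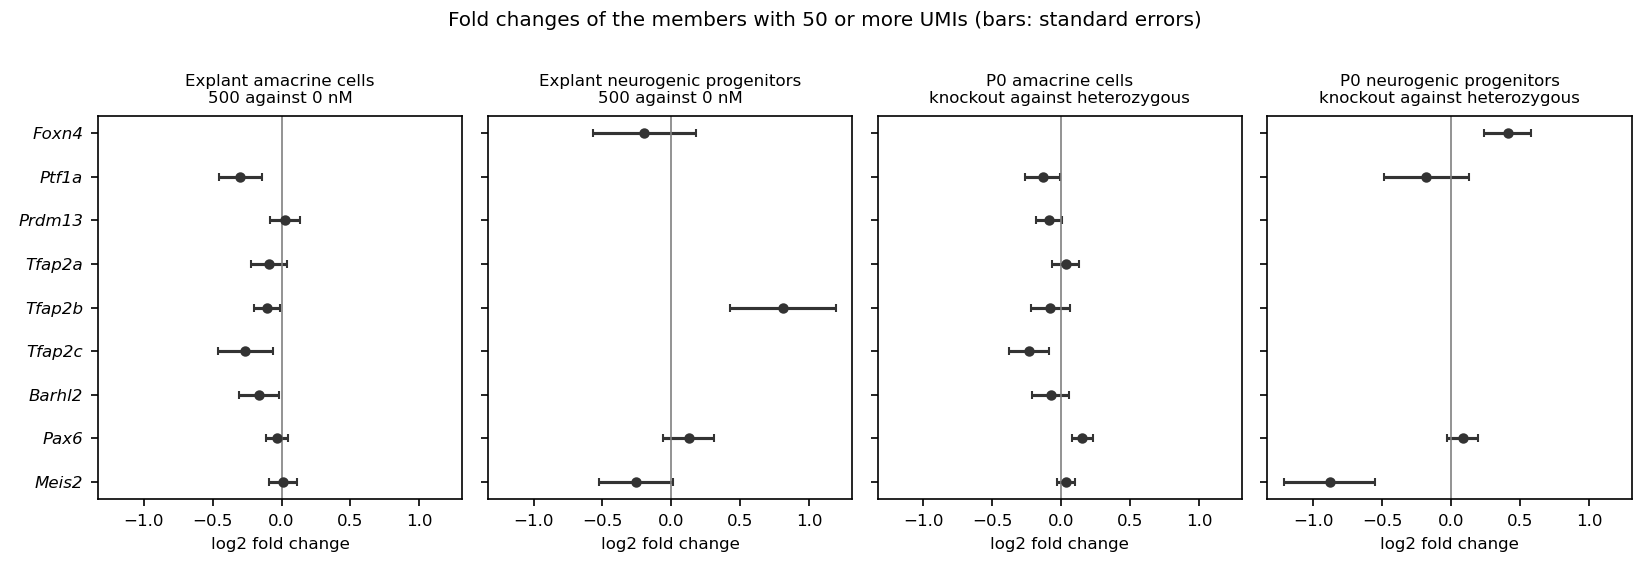
Log2 fold changes of the members with at least 50 UMIs, in 4 comparisons. The x axis is the log2 fold change, points are estimates of the edgeR fit and bars are standard errors. In amacrine cells the estimates run from -0.30 to 0.15, and in P0 neurogenic progenitors Foxn4 lies at 0.41 and Meis2 at -0.88, neither of them called.

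P0 amacrine levels were even across genotypes for most members. Against the heterozygotes the log2 fold changes were -0.13 ± 0.13 for Ptf1a, -0.09 ± 0.09 for Prdm13, 0.03 ± 0.10 for Tfap2a, -0.08 ± 0.14 for Tfap2b, -0.08 ± 0.13 for Barhl2 and 0.04 ± 0.07 for Meis2. Tfap2c held 61.6 and 61.5 CPM in the knockouts, 68.5 and 77.2 in the heterozygotes and 66.6 in the wild type (-0.23 ± 0.15). Pax6 held 1346 and 1422 CPM in the knockouts, above 1223 and 1289 in the heterozygotes and 1301 in the wild type (0.15 ± 0.07, edgeR unadjusted p = 0.0561). How many of all genes separated the genotypes as Tfap2c and Pax6 did was not counted, so this is no result about the members. Against the wild type the fold changes ran from -0.18 for Barhl2 to 0.10 for Pax6. Tfap2b was called lower against the heterozygotes when knockout replicate 1 was left out (-0.43), which leaves the lone knockout with 751 CPM.

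In P0 neurogenic progenitors Foxn4 was higher in both knockouts than in both heterozygotes and Meis2 was lower in both, but neither passed the test over all genes. The share of all genes that separated these retinas was not counted, so the separation is no result about the members. Foxn4 gave 0.41 ± 0.17 (unadjusted p = 0.0305, edgeR adjusted p = 0.989), and the wild type, at 83.4 CPM, lay with the knockouts (0.01 ± 0.20). The thinned share of cells with a Foxn4 UMI was 8.62% and 7.74% in the heterozygotes and 16.2% and 13.4% in the knockouts, with the wild type below both knockouts at 10.1%. Meis2 held 17.8 and 13.9 CPM in the knockouts, 21.3 and 36.6 in the heterozygotes and 19.4 in the wild type (-0.88 ± 0.33, unadjusted p = 0.0186, edgeR adjusted p = 0.989). Ptf1a changed by -0.18 ± 0.31 and Pax6 by 0.08 ± 0.11.

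At P14 the comparison of amacrine cells rested on 1 wild-type and 2 knockout retinas, because the fit dropped both heterozygotes. No gene of 5492 was called (0%), by edgeR or by DESeq2, with 104 genes at an unadjusted p under 0.05 by edgeR. None of the 7 members tested was called. Among the members with at least 50 UMIs the fold changes were -0.28 ± 1.60 for Tfap2b, 0.91 ± 1.62 for Pax6, 0.15 ± 1.28 for Meis2 and 0.35 ± 0.88 for Tfap2a, with errors too wide to bound a change.

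Among the 28 other factors, 19, 20, 24, 17 and 15 passed the filter in explant amacrine cells, explant neurogenic progenitors, P0 amacrine cells, P0 neurogenic progenitors and P14 amacrine cells. A single call was made, for Isl1 in P0 amacrine cells of knockouts against heterozygotes (log2 fold change 1.72 ± 0.24, edgeR adjusted p = 0.0143), a LIM-homeodomain factor of starburst amacrine and ganglion cells. It stood at 56.2 and 46.8 CPM in the knockouts, 11.9 and 18.8 in the heterozygotes and 32.1 in the wild type. These values came from 4 cells in each knockout and 1 and 2 in the heterozygotes, and DESeq2 did not call it. Of the list, Rorb (2381 ± 87.2 CPM) and Neurod4 (313 ± 62.2) were among the highest in P0 amacrine cells.

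The genes whose levels over cell types and samples were most like each member were ranked by the lower of 2 Pearson correlations, over 39 explant and 25 P0 profiles of 11499 genes. The profiles share cell types and libraries, so the values are a description. Those nearest to Foxn4 were Frmpd1 (0.91), Pbk (0.89) and Cdca2 (0.89). Nearest to Ptf1a were Sox4 (0.80), Hdac2 (0.77) and C1ql2 (0.74), and nearest to Prdm13 were St18 (0.88), C1ql2 (0.87) and Cxcl14 (0.86).

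Tfap2a and Tfap2b were nearest to each other (0.93), followed by Gad1 (0.87 and 0.88) and then by Auts2 (0.86) and Slc32a1 (0.86). Tfap2c instead stood nearest to Cxcl14 (0.86), Prdm13 (0.84) and Gng8 (0.84). Those nearest to Barhl2 were Nsg1 (0.91), Iglon5 (0.90) and Runx1t1 (0.90), and among those nearest to Pax6 were Lin7a (0.90) and Mab21l2 (0.88). Those nearest to Meis2 were Rd3l (0.85), 2700033N17Rik (0.85) and Mir124-2hg (0.84).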

How the data were processed

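Whole-number UMI counts per gene and cell were used as the authors deposited them, not normalized, from 3 pooled 10x Chromium 3' libraries. Per the labels the authors ran Cell Ranger 3.1.0 on mm10 and Seurat 3. Samples were assigned by deMULTIplex and cell types were named from clusters. Filters on cells and the removal of doublets are not given in the sources used here, and no doublet caller was run. The deposited SCT tables, which hold the natural log of 1 plus corrected counts, were not used.

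For each cell type the counts of a sample with at least 10 such cells were added up and expressed as CPM (counts scaled to a common total). Conditions and multiplexing barcodes came from the deposited cell annotation, so the 2 samples of a group carry no replicate number of their own and are numbered in barcode order. Nothing in the sources used here says that the samples of a group came from separate animals, so p-values measure only the spread between these samples, which may be technical. Comparisons used edgeR 4.0.16 in R 4.3.3 (TMM, filterByExpr, quasi-likelihood test, Benjamini-Hochberg over all genes tested, threshold 0.05), with DESeq2 1.42.0 as an alternative. Splits compared sums of cells with and without a UMI of 1 gene (at least 5 cells a side) with the sample as a term, and by exact two-sided sign-flip permutation of log2(CPM + 1). Shares were counted after thinning each cell to 2000 UMIs. Scripts used Python 3.11.15, numpy 2.4.6, pandas 2.3.3, scipy 1.17.1 and matplotlib 3.10.9 and were tested on simulated counts. Intervals and floors cover counting error only.

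Alternatives were DESeq2 size factors, the DESeq2 Wald test, no filter on low counts, leaving out the 5% of cells with the most UMIs, thinning, and leaving out each sample. The members, lists and comparisons were chosen with earlier results of these data known. Named were the 9 members at every level, in comparisons those with at least 50 UMIs, the 3 genes most like each, Sstr2, and of 28 other factors those called and the 3 highest in P0 amacrine cells. Prdm13 in the P0 Ptf1a split of neurogenic progenitors was named with a fold change although it had fewer UMIs than that. Genes named beside a split, for sex, microglia or lens and in RGCs were chosen after their values were seen. Promoters came from RefSeq and gene positions from GENCODE M21. Some genes that this rule names are not reported here.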

Additional observations from a re-analysis of the deposited data

How the results depend on the processing

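Of 987 values recomputed under an alternative, 833 stayed the same. For a fold change, this means the same direction and the same side of the threshold. For a count, it means a value within 1.5 times of the main one. Uncalled fold changes that kept their direction are among these, as are counts with no call in either run. Of the rest, 54 fold changes turned direction, 80 counts moved further, 13 fold changes lost a call and 7 gained one. No paired analysis was possible because the cell annotation carries multiplexing barcodes without replicate numbers that could tie samples of different groups to each other. DESeq2 size factors changed no count of calls by more than 1.5 times. P14 amacrine cells of knockouts against heterozygotes could not be fitted with 4 cells in each heterozygous retina, and a split of amacrine cells by GABA and glycine genes was not run because no sample had 5 cells on both sides. Depth limits the P14 amacrine cells and the members with few counts in progenitors.

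With the DESeq2 Wald test the genes called at 500 against 0 nM numbered 1 in explant amacrine cells, 0 in neurogenic progenitors and 1 in primary progenitors, and for the trend 0 and 2 in amacrine cells and neurogenic progenitors. In the splits it called 1970 genes in P0 amacrine cells, 305 and 535 for Foxn4 in explant and P0 neurogenic progenitors and 15 and 64 for Ptf1a there. It called 0 members in the explant Foxn4 split and 0 in the P0 Ptf1a split of neurogenic progenitors, where it gave Prdm13 no adjusted p. The cause was not tested. With cells thinned to 2000 UMIs, which leaves fewer counts, the splits called 564 and 784 genes for Ptf1a in explant and P0 amacrine cells, 54 and 62 for Foxn4 and 2 and 16 for Ptf1a in neurogenic progenitors. With 1 member left to test in each split of neurogenic progenitors, thinning gave 0 members called in the explant Foxn4 and the P0 Ptf1a split, which says nothing of the members not tested, and Barhl2 in the P0 amacrine split turned to 0.031.

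With no filter on low counts the genes called were 39 in explant amacrine cells at 500 nM and 39 for the trend, 67 in explant primary progenitors, 54 and 59 in P0 amacrine cells of knockouts against wild type and heterozygotes, 6 and 2 in P0 neurogenic progenitors, and 79 and 314 in the explant and P0 Ptf1a splits of neurogenic progenitors. Members called were then 2 in explant primary progenitors, 2 in each Foxn4 split and 1 in the explant Ptf1a split of neurogenic progenitors.

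Without the 5% of cells with the most UMIs the genes called were 13 in explant amacrine cells at 500 nM, 2 in P0 amacrine cells and 6 in P0 neurogenic progenitors against the wild type, 2 in the latter against heterozygotes, and 1 at P14. The members past the exact test in the Foxn4 split fell to 0. Values that turned sign there were, on the log2 scale, Foxn4 in explant neurogenic progenitors (0.024, trend 0.030) and Pax6 (trend -0.000653), Prdm13 in explant amacrine cells (trend 0.012) and Pax6 in primary progenitors (-0.048). At P0 they were Prdm13 (0.020) and Tfap2c (0.089) against the wild type and Meis2 (-0.010) against heterozygotes, all in amacrine cells, and at P14 Tfap2a (-1.07), Tfap2b (1.47) and Meis2 (-0.30).

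Leaving out 1 sample at a time, members called ranged from 0 to 1 over the planned comparisons, the 1 being Tfap2b in P0 amacrine cells without knockout replicate 1, and from 0 to 2 in explant primary progenitors. Genes called ranged from 7 to 24 for the amacrine trend, 2 to 5 for the neurogenic trend and 6 to 241 in primary progenitors. At P0 they ranged from 48 to 62 and 13 to 67 in amacrine cells against wild type and heterozygotes and from 38 to 39 and 1 to 21 in neurogenic progenitors. In the Ptf1a splits of neurogenic progenitors they ranged from 3 to 14 in explants and 72 to 123 at P0, with 1 to 3 members called at P0. In the Foxn4 splits 0 to 1 members were called in explants and 0 to 1 at P0, 0 to 2 passed the exact test, and 0 to 1 of the relations of shares to dose had an exact p under 0.05, the 1 being Ptf1a without 0 nM replicate 2.

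Log2 fold changes at 500 nM that crossed 0 when a sample was left out ranged, in amacrine cells, from -0.091 to 0.10 for Meis2, -0.038 to 0.13 for Prdm13, -0.27 to 0.041 for Tfap2b and -0.34 to 0.10 for Tfap2a. In neurogenic progenitors the ranges were -0.65 to 1.15 for Foxn4, -0.80 to 0.23 for Meis2 and -0.055 to 0.27 for Pax6, and in primary progenitors -0.027 to 0.86 for Foxn4 and -0.21 to 0.18 for Pax6. Slopes ranged from -0.12 to 0.0069 for Tfap2c, -0.026 to 0.040 for Meis2, -0.039 to 0.0087 for Prdm13, -0.099 to 0.0088 for Tfap2b and -0.11 to 0.015 for Tfap2a in amacrine cells, and from -0.17 to 0.23 for Foxn4, -0.29 to 0.12 for Ptf1a and -0.047 to 0.039 for Pax6 in neurogenic progenitors.

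At P0 against heterozygotes the amacrine ranges were -0.24 to 0.085 for Barhl2, -0.28 to 0.010 for Ptf1a, -0.025 to 0.091 for Tfap2a and -0.43 to 0.21 for Tfap2b, and the neurogenic ones -0.045 to 0.21 for Pax6 and -0.59 to 0.14 for Ptf1a. Against the wild type they were -0.13 to 0.025 for Ptf1a and -0.38 to 0.25 for Tfap2b in amacrine cells, and -0.035 to 0.064 for Foxn4 and -0.094 to 0.16 for Pax6 in neurogenic progenitors. In the Ptf1a splits Pax6 ranged from -0.062 to 0.010 in explant amacrine cells, Barhl2 from -0.16 to 0.027 in P0 amacrine cells and Meis2 from -1.91 to 0.24 in explant neurogenic progenitors. The called differences of Prdm13, Tfap2a, Tfap2b, Tfap2c and Meis2 in both amacrine splits kept their direction under every alternative run.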
